A study of Mus musculus with 12 samples.

Results

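The genes described here are 10 transcription factors of the primitive streak, the early mesoderm and the posterior body: T, Eomes, Tbx6, Mixl1, Gsc, Lhx1, Evx1, Mesp1, Cdx1 and Cdx2. They were taken by gene symbol from the deposited read count table, where they are 10 of 24495 genes. RNA-seq was made from CCE-Nanog-GFP mouse embryonic stem cells (mESCs), a line in which a green fluorescent reporter follows Nanog and from which GFP-positive cells were sorted before the experiments. The control line, shSC, carries a scramble hairpin (labelled scr, genotype WT), and the other line, shCTSL, carries a hairpin in the lentiviral vector pLKO.1 against the mRNA of the protease Cathepsin L (labelled KD, genotype CTSL KD). Both lines were selected with puromycin, and each is 1 stable line, so that a difference between the lines cannot be told apart from a difference between these cell populations. Each line was sampled as undifferentiated mESCs grown with LIF (Day 0) and as embryoid bodies (EBs) after 2 and 4 days without LIF and with all-trans retinoic acid (Day 2, Day 4), with 2 replicates in each of the 6 groups. The study calls the replicates biological, but no source used here says that they came from separate cultures, so p-values measure only the spread between these samples.

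In the gastrulating embryo, Nodal, Wnt and Bmp signals turn on the T-box factors Eomes and T and the homeobox factors Mixl1, Gsc, Lhx1 and Evx1 in the primitive streak. Cells that leave the streak then turn on Mesp1 or Tbx6, and the caudal factors Cdx1 and Cdx2 mark the posterior epiblast and the tail bud. Several of these genes also act elsewhere: Eomes and Cdx2 in the trophectoderm, Eomes and Lhx1 in the visceral endoderm, Cdx1 as a direct target of retinoic acid, and Lhx1 in the intermediate mesoderm. In EBs without added factors the streak genes are typically transient, and retinoic acid is known to steer EBs away from mesoderm.

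The 12 libraries held 11171111 to 27155553 counted reads. All libraries entered 1 edgeR quasi-likelihood fit, with totals scaled by TMM (an adjustment of library totals for composition), for the 15532 genes that passed a count filter. The filter, set at a minimum count of 10, asks for about that depth in some libraries only, so a tested gene can have 0 reads in others. A gene was called higher or lower with a Benjamini-Hochberg adjusted p under 0.05 over all genes tested and at least a 1.5-fold change. Levels are given as normalized CPM, that is, counts scaled to a common library size. The SD of the log2 ratio between the replicates of a group was 0.178 to 0.269 in 5 groups and 0.604 in shCTSL at Day 2, so values for that group are the least certain. In the fit the spread of a gene is shared over all groups. Its SEs and p-values for shCTSL Day 2 therefore do not carry the full spread of that group, and those of the other groups take up part of it. For Ctsl, the targeted gene, shSC had 142 ± 7.15 CPM (SD, n = 2), 380 ± 15.8 and 453 ± 42.9 at Day 0, 2 and 4. The shCTSL values were 38.4 ± 1.23, 183 ± 39.0 and 255 ± 3.31. Ctsl was called lower in shCTSL at Day 0 (edgeR adjusted p = 0.00246) and Day 2 (adjusted p = 0.034) but not at Day 4 (adjusted p = 0.090).

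The promoters of 8 of the 10 genes were found in the RefSeq table used here, build GRCm38.p6, and the 250 bases before the start site are shown for 3 genes that rose in the EBs and for the 2 that are compared with them, T and Evx1. Capitals mark matches on either strand to 7 short motifs: the nuclear receptor half-site AGGTCA, the TCF/LEF sites CTTTGAT and CTTTGAA, the T-box half-site AGGTGT, the Cdx site TTTATNG, the TATA box TATAAA and the Sp1 GC box GGGCGG.
Lhx1, minus strand, chr11:84525535-84525784: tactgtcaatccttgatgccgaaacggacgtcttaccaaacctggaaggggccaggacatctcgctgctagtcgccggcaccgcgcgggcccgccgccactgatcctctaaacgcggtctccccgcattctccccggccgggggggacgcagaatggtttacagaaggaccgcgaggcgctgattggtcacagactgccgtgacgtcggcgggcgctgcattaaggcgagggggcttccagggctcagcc
Eomes, plus strand, chr9:118477939-118478188: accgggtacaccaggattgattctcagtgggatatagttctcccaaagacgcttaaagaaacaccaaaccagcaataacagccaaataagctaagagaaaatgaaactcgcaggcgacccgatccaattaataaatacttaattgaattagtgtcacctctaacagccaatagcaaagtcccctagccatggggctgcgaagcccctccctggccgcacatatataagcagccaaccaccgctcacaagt
Cdx2, minus strand, chr5:147307250-147307499: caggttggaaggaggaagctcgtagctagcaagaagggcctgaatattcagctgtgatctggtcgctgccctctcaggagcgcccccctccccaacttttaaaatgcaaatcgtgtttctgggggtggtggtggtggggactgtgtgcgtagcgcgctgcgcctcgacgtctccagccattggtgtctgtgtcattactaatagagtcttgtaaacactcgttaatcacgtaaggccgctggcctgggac
T, plus strand, chr17:8434173-8434422: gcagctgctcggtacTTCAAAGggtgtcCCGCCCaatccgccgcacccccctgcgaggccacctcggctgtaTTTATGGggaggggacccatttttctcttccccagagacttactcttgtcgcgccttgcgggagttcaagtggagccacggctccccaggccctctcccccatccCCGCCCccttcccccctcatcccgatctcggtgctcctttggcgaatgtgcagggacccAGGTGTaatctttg
Evx1, plus strand, chr6:52313248-52313497: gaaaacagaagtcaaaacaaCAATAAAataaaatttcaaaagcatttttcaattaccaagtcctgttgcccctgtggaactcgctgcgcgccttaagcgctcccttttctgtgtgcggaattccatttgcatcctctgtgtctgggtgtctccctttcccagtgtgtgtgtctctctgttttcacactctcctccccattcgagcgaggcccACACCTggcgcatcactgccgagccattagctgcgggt
The windows of Lhx1, Eomes and Cdx2 held none of the 7 motifs. The T window held a TCF/LEF site, a T-box half-site, a Cdx site and 2 GC boxes, and the Evx1 window a T-box half-site and a Cdx site. Among 32851 promoter windows of the same length, 14% held AGGTCA, 3.21% CTTTGAT, 4.46% CTTTGAA, 11.8% AGGTGT, 9.81% TTTATNG, 12.4% TATAAA and 32.7% GGGCGG, and the Cdx and TATA letters can overlap, as they did in the Tbx6 window. Mesp1 held both TCF/LEF sites and a T-box half-site, and Gsc a TATA box and 2 GC boxes. These are matches of letters in short windows and say nothing about binding.

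Retinoic acid EBs of the control line showed a split among the 10 genes. At Day 2 Lhx1, Cdx1, Cdx2, Eomes and Gsc were higher than in undifferentiated mESCs, Mixl1 and Evx1 were lower, T and Tbx6 were not called, and Mesp1 had too few reads to test. The 9 tested genes thus held 5 called higher, against 29.3% of all genes tested, and 2 called lower, against 25.3%. Lhx1 and Gsc, with 0 to 4 and 0 to 5 reads per Day 0 library, passed the count filter only through EB libraries, where they were higher. Mixl1 passed it through its Day 0 libraries, where it was highest. The directions of these genes therefore follow in part from the filter. The median log2 fold change of the 9 tested genes was 2.05, and that of all genes tested was 0.02. The first is the value of Gsc, which was 1.21 without shSC Day 0 replicate 1. In shCTSL the medians of the same comparison were 0.63 and 0.08. None of T, Mixl1, Mesp1, Gsc, Tbx6 or Evx1 exceeded 2.46 CPM in any library on any day.

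Lhx1, a LIM homeobox factor of the anterior streak, the visceral endoderm and the intermediate mesoderm, had the largest change of the 9 tested genes. It lies at chr11:84331479-84338923 (mm9, minus strand). Its counts in shSC were 4 and 1 at Day 0, 1001 and 719 at Day 2, and 127 and 157 at Day 4, which are 0.305 and 0.0619, 33.2 and 31.5, and 5.61 and 10.9 CPM. The libraries of the 3 days did not overlap, and those of Day 2 stood far above the rest. The log2 fold change was 7.50 ± 0.57 (SE) at Day 2 against Day 0 (edgeR adjusted p = 4.07e-06), 5.51 ± 0.62 at Day 4 against Day 0 (adjusted p = 4.22e-05) and -2.0 ± 0.33 at Day 4 against Day 2 (adjusted p = 0.00198). As the Day 0 level rests on 5 reads, the ratio of the summed counts at Day 2 was 190 with a 95% counting interval of 81.3 to 586. In shCTSL no Lhx1 read was counted at Day 0, against 395 and 804 at Day 2 and 64 and 109 at Day 4. By the 95% counting intervals, Lhx1 in shCTSL was at least 187-fold higher at Day 2 and at least 27.4-fold higher at Day 4 than at Day 0. From Day 2 to Day 4 it fell in shCTSL by 2.73 ± 0.35 on the log2 scale (edgeR adjusted p = 0.00052).

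The caudal homeobox genes Cdx1 and Cdx2, which set posterior identity through the Hox genes, rose and fell together. Cdx1 was at 3.66 and 3.28 CPM at Day 0 in shSC, 46.2 and 38.6 at Day 2, and 7.69 and 7.14 at Day 4. In shCTSL it was at 3.28 and 3.26, 75.0 and 49.1, and 9.74 and 10.3 CPM. In both lines the days did not overlap and Day 2 was the peak. By Day 2 Cdx1 rose by 3.61 ± 0.22 on the log2 scale in shSC (edgeR adjusted p = 5.29e-07) and 4.24 ± 0.23 in shCTSL (adjusted p = 2.6e-07). It then fell by 2.51 ± 0.20 (adjusted p = 1.86e-05) and 2.63 ± 0.20 (adjusted p = 1.42e-05). Day 4 was still above Day 0, by 1.10 ± 0.23 (adjusted p = 0.00161) and 1.61 ± 0.23 (adjusted p = 0.000148).

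Cdx2 (chr5:148112381-148118846, minus strand), which is also a master factor of the trophectoderm, followed the same course at a lower level. Its shSC levels were 0.229 and 0.991 CPM at Day 0, 3.72 and 3.46 at Day 2, and 1.41 and 1.59 at Day 4. The shCTSL levels were 0.820 and 0.737, 6.34 and 4.6, and 2.22 and 2.66 CPM. Again no library of one day reached into another day within a line. The Day 2 rise was 2.47 ± 0.40 on the log2 scale in shSC (edgeR adjusted p = 0.000368) and 2.78 ± 0.40 in shCTSL (adjusted p = 0.000168). From Day 2 to Day 4 its log2 change was -1.26 ± 0.33 in shSC (adjusted p = 0.0168) and -1.15 ± 0.31 in shCTSL (adjusted p = 0.0187). Day 4 stayed above Day 0 by 1.21 ± 0.45 in the control (adjusted p = 0.0360) and 1.63 ± 0.43 in the knockdown line (adjusted p = 0.00703). The Day 4 against Day 0 call in shSC was lost without shSC Day 0 replicate 1, which had 3 Cdx2 reads (0.58, adjusted p = 0.196), and was at an adjusted p of 0.0502 to 0.103 in 6 other fits that left out 1 library. The fall from Day 2 to Day 4 lost its call without either replicate of Day 2 or Day 4 in shSC (adjusted p = 0.0623 to 0.135) and without either replicate of Day 4 in shCTSL (adjusted p = 0.0684 and 0.133), and in shCTSL also with limma-voom (adjusted p = 0.288) and with only the libraries compared (adjusted p = 0.0770).

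Of the T-box genes among the members, Eomes (chr9:118387330-118395250, plus strand) was the one that rose. It starts mesoderm and endoderm formation in the streak and is also used by the trophectoderm and the visceral endoderm. In shSC it was at 4.50 and 3.10 CPM at Day 0, 19.5 and 18.3 at Day 2, and 13.7 and 8.60 at Day 4, and in shCTSL at 3.58 and 4.11, 16.1 and 21.7, and 8.60 and 8.06. All EB libraries were above all Day 0 libraries. The change at Day 2 against Day 0 was 2.33 ± 0.26 on the log2 scale in shSC (edgeR adjusted p = 3.04e-05) and 2.31 ± 0.27 in shCTSL (adjusted p = 3.94e-05). At Day 4 Eomes remained higher than at Day 0, by 1.58 ± 0.27 in shSC (adjusted p = 0.000414) and 1.12 ± 0.28 in shCTSL (adjusted p = 0.00471). It fell from Day 2 to Day 4, by 0.75 ± 0.23 (adjusted p = 0.0349) and 1.19 ± 0.24 (adjusted p = 0.00446). That call was lost in shSC in 7 of the fits that left out 1 library (-0.47, adjusted p = 0.214, without shSC Day 4 replicate 2), and in shCTSL with limma-voom (adjusted p = 0.0654).

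T (Brachyury; chr17:8627288-8635361, plus strand), the defining gene of the streak and of nascent mesoderm, was called higher in no comparison of days. Its counts were 15 and 9 at Day 0, 15 and 9 at Day 2, and 8 and 2 at Day 4 in shSC, and 16 and 3, 8 and 11, and 2 and 7 in shCTSL. Scaled for depth this is 1.14 and 0.557, 0.498 and 0.394, and 0.353 and 0.139 CPM in shSC, where the days did not overlap. In shCTSL it is 1.19 and 0.316, 0.492 and 0.468, and 0.108 and 0.344 CPM, and Day 0 overlapped both other days. The change at Day 2 was -0.87 ± 0.58 on the log2 scale in shSC (edgeR adjusted p = 0.214, 95% interval -2.16 to 0.42) and -0.76 ± 0.63 in shCTSL (adjusted p = 0.318, interval -2.17 to 0.65). An increase of more than 0.65 lies outside both intervals. The shCTSL bound rests on Day 0 replicate 1, without which the estimate was 0.59. At Day 4 against Day 0 it was -1.61 ± 0.68 in shSC (adjusted p = 0.0572), which was not called, and -1.78 ± 0.72 in shCTSL (adjusted p = 0.0495), which was. In shSC 8 alternatives called it (adjusted p = 0.0363 to 0.0445). The shCTSL call rests on Day 0 replicate 1, without which the change was -0.44 (adjusted p = 0.738), and it was lost in 12 alternatives in all.

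Tbx6 (chr7:133924997-133929074, plus strand), which directs cells from neural to paraxial mesoderm fate, was the member with the least movement. Its levels in shSC were 1.45 and 0.743, 1.19 and 1.36, and 1.15 and 1.04 CPM at the 3 days, and in shCTSL 1.27 and 0.421, 1.6 and 1.02, and 0.595 and 1.28. The days overlapped except for Day 4 against Day 2 in shSC. The log2 fold changes lay between -0.43 and 0.50 over the 6 comparisons of days, with SEs of 0.45 to 0.55 and no call, at 4 to 36 counts per library.

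Among the homeobox genes, Mixl1 fell and Evx1 dipped, whereas Gsc rose from a few reads. Mixl1 (chr1:182623174-182627165, minus strand) is a paired-type factor of the streak that promotes mesendoderm. It was at 1.07 and 0.991 CPM in shSC at Day 0, 0.431 and 0.219 at Day 2, and 0.221 and 0.139 at Day 4, and in shCTSL at 0.969 and 1.26, 0.369 and 0.511, and 0.108 and 0.295. The Day 0 libraries, with 12 to 16 reads each, were above all EB libraries. The change was -1.59 ± 0.42 at Day 2 (edgeR adjusted p = 0.00751) and -2.41 ± 0.51 at Day 4 (adjusted p = 0.00175) in shSC, and -1.27 ± 0.44 (adjusted p = 0.0265) and -2.38 ± 0.51 (adjusted p = 0.00195) in shCTSL. The shCTSL Day 2 call was lost under 7 alternatives, among them DESeq2 (adjusted p = 0.0752), and the shSC Day 2 call without shSC Day 2 replicate 2 (-1.24, adjusted p = 0.0548).

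Evx1 (chr6:52263492-52268372, plus strand), an even-skipped homeobox gene of the posterior streak, had a course of its own. Its counts in shSC were 31 and 15 at Day 0, 2 and 2 at Day 2, and 15 and 10 at Day 4, and in shCTSL 33 and 19, 0 and 1, and 14 and 27. As CPM this is 2.36 and 0.929, 0.0664 and 0.0875, and 0.663 and 0.693 in shSC, and 2.46 and 2.0, 0 and 0.0425, and 0.757 and 1.33 in shCTSL. The 3 days did not overlap in either line, and Day 2 was the lowest. In shSC the change was -4.29 ± 0.65 on the log2 scale at Day 2 against Day 0 (edgeR adjusted p = 0.000243), 3.05 ± 0.74 at Day 4 against Day 2 (adjusted p = 0.0112) and -1.24 ± 0.48 at Day 4 against Day 0 (adjusted p = 0.0400). As the Day 2 level in shSC rests on 4 reads, the ratio of its summed counts to Day 0 was 0.0480 (95% counting interval 0.0126 to 0.132). The Day 2 level in shCTSL rests on 1 read, and the ratio of the summed counts to Day 0 was 0.0111 (95% counting interval 0.000275 to 0.0645), a difference that was called (adjusted p = 8.69e-05). The Day 4 against Day 0 change in shCTSL was -1.10 ± 0.43 (adjusted p = 0.0446). The shCTSL call at Day 2 was lost with limma-voom (adjusted p = 0.0858). Both Day 4 against Day 0 calls were lost in 10 alternatives each, and the rise from Day 2 to Day 4 was lost in shSC without Day 2 replicate 1 or 2 or Day 4 replicate 1 (adjusted p = 0.0503 to 0.0857) and in shCTSL with limma-voom (adjusted p = 0.354). Without shSC Day 0 replicate 1 the Day 4 against Day 0 change in shSC was -0.46 (adjusted p = 0.446), and without shCTSL Day 4 replicate 1 that in shCTSL was -0.76 (adjusted p = 0.219). In mm9 the gene overlaps a lincRNA on the other strand, and Evx1os, its antisense RNA, was counted at 0 to 8 reads per library. The libraries were made with a directional kit, but no source gives the strand setting of the read counting. Reads of this pair may therefore not be fully separated.

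Gsc (goosecoid; chr12:105709419-105711537, minus strand), a repressor of the anterior streak and organizer, had 0 and 4 reads in shSC at Day 0, 18 and 13 at Day 2, and 11 and 6 at Day 4, and in shCTSL 5 and 4, 14 and 10, and 9 and 12. The highest level in any library was 0.861 CPM. In shSC all EB libraries were above Day 0, and the change was 2.05 ± 0.70 on the log2 scale at Day 2 (edgeR adjusted p = 0.0266) and 1.70 ± 0.77 at Day 4 (adjusted p = 0.0719, called in 4 alternatives). The Day 2 call rests on the library with 0 reads, as it was 1.21 (adjusted p = 0.129) without shSC Day 0 replicate 1, and it was also lost without either Day 2 replicate (adjusted p = 0.0832 and 0.0620). In shCTSL the same changes were 0.63 ± 0.61 (adjusted p = 0.387) and 0.45 ± 0.63 (adjusted p = 0.540).

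Mesp1 (chr7:86937127-86938674, minus strand), the bHLH factor of the earliest cardiac and cranial mesoderm, had 20 reads over all 12 libraries and 0 to 3 in each, and was the only member below the count filter. Its summed counts over the 3 days were 4, 2 and 2 in shSC, which allow at most 0.350, 0.136 and 0.195 CPM. In shCTSL they were 6, 2 and 4, which allow at most 0.570, 0.182 and 0.264 CPM (upper limits of exact 95% Poisson intervals, covering counting error only). The ratio of its summed counts at Day 2 to Day 0 was 0.276 in shSC (95% counting interval 0.0250 to 1.93) and 0.192 in shCTSL (0.0190 to 1.07). With a stricter filter of 1 CPM in 2 libraries, 6 of the 10 genes were left, and T, Mixl1 and Gsc were lost as well.

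**Figure D1:**
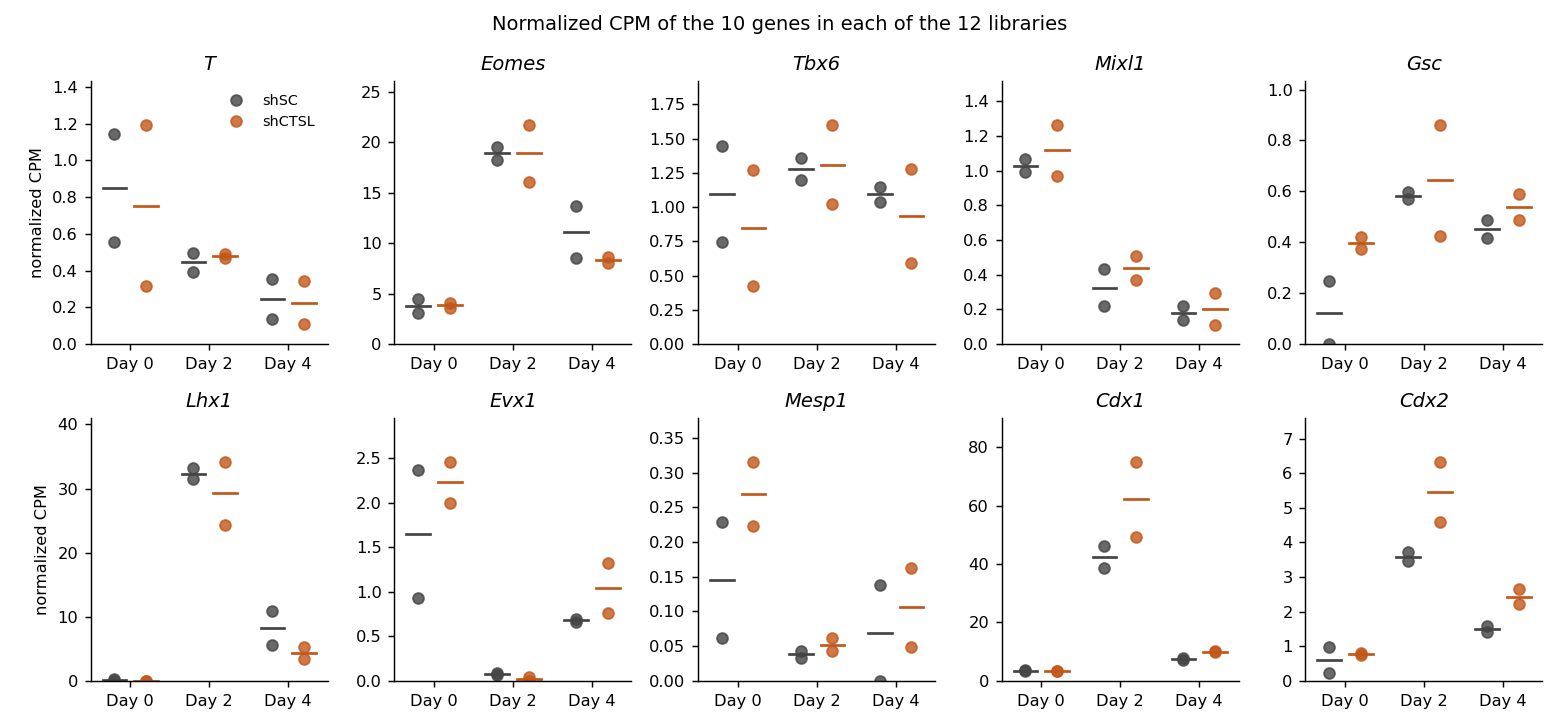
Normalized CPM (vertical axes, each from 0 to its own maximum) of each gene in the 12 libraries by day, for shSC (grey) and shCTSL (orange), with points for libraries and bars for the mean of 2. Lhx1, Cdx1, Cdx2 and Eomes peak at Day 2, Evx1 is lowest there, and T, Mixl1, Gsc and Mesp1 stay below 1.3 CPM throughout.

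Levels of different genes were compared per kilobase of exon. At Day 2 in shSC the order was Cdx1 with 24.2 ± 3.07 CPM per kilobase (SD, n = 2), Lhx1 with 7.85 ± 0.301, Eomes with 4.55 ± 0.214, Cdx2 with 1.59 ± 0.081, Tbx6 with 0.707 ± 0.063, Gsc with 0.461 ± 0.016, T with 0.193 ± 0.032, Mixl1 with 0.142 ± 0.066, Mesp1 with 0.030 ± 0.006 and Evx1 with 0.027 ± 0.005. The neighbours T and Mixl1, and Mesp1 and Evx1, were within their spread of each other. At Day 0 the order in shSC was led by Cdx1 with 1.98 ± 0.152 and Eomes with 0.914 ± 0.238, and Lhx1, with 0.044 ± 0.042, was among the lowest, within the spread of Gsc with 0.098 ± 0.138 and Mesp1 with 0.114 ± 0.092. Evx1 was at 0.572 ± 0.352 at Day 0, within the spread of Tbx6, Mixl1 and T. By Day 2 Lhx1 was in the second place, and Evx1 was among the lowest. The order of all 10 at Day 2 was the same in shCTSL.

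From Day 2 to Day 4, 4 of the 5 genes that had risen in shSC fell back, and Gsc was not called (-0.35 ± 0.51, edgeR adjusted p = 0.657). In shSC, 4 of the 9 tested genes were called lower (Eomes, Cdx1, Cdx2 and Lhx1), against 12.4% of all genes, and 1, Evx1, was called higher, against 11.4%. Against Day 0, Day 4 still had 4 genes called higher (32.1% of all genes) and Mixl1 and Evx1 called lower (28.7%). In shCTSL Eomes, Cdx1, Cdx2 and Lhx1 were called higher at Day 2 (30.9% of all genes) and Mixl1 and Evx1 lower (24.6%). At Day 4 against Day 0 in shCTSL, 4 were higher (32.3%) and 3, T included, were lower (27.6%). From Day 2 to Day 4 in shCTSL, Evx1 was called higher (11.0% of all genes) and Eomes, Cdx1, Cdx2 and Lhx1 lower (12.4%). The comparisons of days within a line share libraries, so they are not independent of each other. The limit of the count filter given above for Lhx1, Gsc and Mixl1 also holds for these counts against Day 0. In RNA of whole EBs, fewer cells that express a gene and less of its RNA per cell cannot be told apart.

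**Figure D2:**
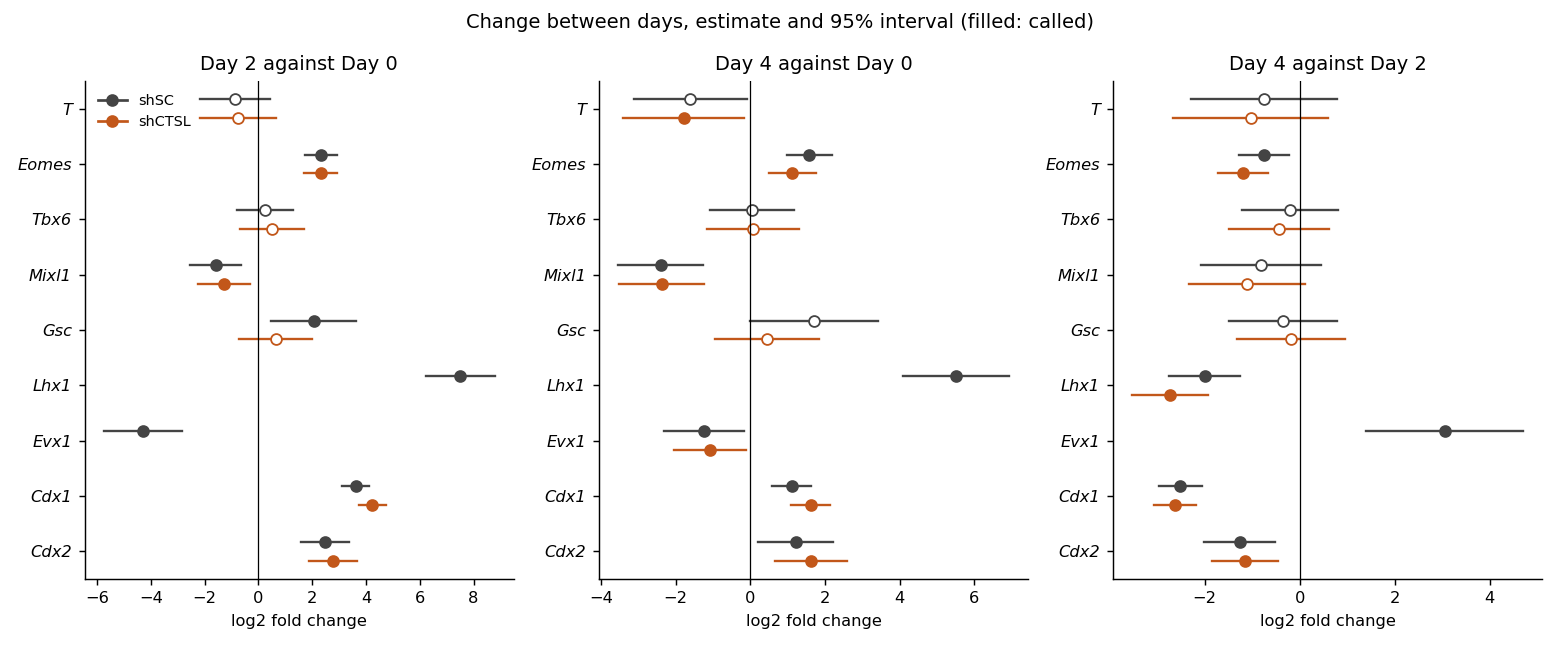
Log2 fold changes between days (horizontal axes) for the 9 tested genes in shSC (grey) and shCTSL (orange), with 95% intervals from the edgeR fit and filled points for called changes. Lhx1 against Day 0 and Evx1 against Day 2 values of shCTSL that rest on 0 or 1 read are left out, and Eomes, Cdx1 and Cdx2 lie on the same side of 0 in both lines in all 3 comparisons.

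The lines were compared as shCTSL against shSC, where an effect of less Ctsl cannot be told apart from another difference between these cell populations. None of the 9 tested genes was called on any of the 3 days by edgeR (0.0901% of all genes were), by DESeq2 (1.74%) or by limma-voom with quality weights per library (6.08%). At an unadjusted p under 0.05, which 32.6% of all genes reached on at least 1 day, 2 did: Cdx1 at Day 2 and Lhx1 at Day 4. In the mean over the days none was called by edgeR (0.27% of all genes), DESeq2 (0.998%) or limma-voom (0.824%), and 1, Cdx1, had an unadjusted p under 0.05 (22.6%). The differences between the lines in the changes between days gave no call either by edgeR (0.00644% of all genes), DESeq2 (0.377%) or limma-voom (0.837%) and no unadjusted p under 0.05 (16.9%). DESeq2 gave an adjusted p for 9, 4 and 6 of the 9 genes in these 3 sets of comparisons.

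The caudal genes had higher values in shCTSL than in shSC at Day 2 and Day 4, but neither was called. At Day 2 Cdx1 was at 42.4 ± 5.37 CPM in shSC (SD, n = 2) against 62.1 ± 18.3 in shCTSL, and at Day 4 at 7.41 ± 0.386 against 10.03 ± 0.415. Both shCTSL libraries were above both shSC libraries on each of these days. The log2 difference was 0.55 ± 0.18 at Day 2 (95% interval 0.14 to 0.95, edgeR adjusted p = 0.222), 0.43 ± 0.20 at Day 4 (interval -0.02 to 0.89, adjusted p = 0.427) and -0.08 ± 0.26 at Day 0 (interval -0.66 to 0.50, adjusted p = 0.988). Cdx2 was also higher in both shCTSL libraries at Day 2, by 0.59 ± 0.29 (interval -0.05 to 1.24, adjusted p = 0.272), and at Day 4, by 0.71 ± 0.35 (interval -0.08 to 1.49, adjusted p = 0.442). The Day 2 result depends on single libraries. Without shCTSL Day 2 replicate 1 the difference was 0.22 for Cdx1 (adjusted p = 0.381) and 0.36 for Cdx2 (adjusted p = 0.540). Without shCTSL Day 2 replicate 2 the difference was called for Cdx1 (0.82, adjusted p = 1.89e-05) and Cdx2 (0.81, adjusted p = 0.0172), and that of Cdx2 also in the mean over the days (0.60, adjusted p = 0.0336). So was the line difference in the Day 2 against Day 0 change of Cdx1 (0.90 ± 0.24, adjusted p = 0.00736). These fits rely on the lone remaining shCTSL Day 2 library, which is assumed to vary like the other groups. With all libraries that line difference was 0.63 ± 0.32 for Cdx1 (adjusted p = 0.481) and 0.31 ± 0.63 for Cdx2 (adjusted p = 0.858).

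Lhx1 and Eomes had lower values in shCTSL at Day 4. Lhx1 was at 8.25 ± 3.73 CPM in shSC and 4.41 ± 1.34 in shCTSL, with no overlap between the libraries, a difference of -0.87 ± 0.36 on the log2 scale (95% interval -1.68 to -0.06, edgeR adjusted p = 0.389). It was called when either shCTSL Day 2 library, neither of which is part of the comparison, was left out: -0.83 without replicate 1 (adjusted p = 0.0329) and -0.84 without replicate 2 (adjusted p = 0.0307). Eomes was at 11.1 ± 3.61 and 8.33 ± 0.381 CPM, with overlapping libraries and a difference of -0.43 ± 0.24 (interval -0.97 to 0.11, adjusted p = 0.464). At Day 2 the intervals were -0.84 to 0.56 for Lhx1 and -0.50 to 0.51 for Eomes.

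For the genes with few reads the intervals were wide. The difference between the lines lay at -1.39 to 1.34 for T at Day 0, -1.26 to 1.43 at Day 2 and -2.04 to 1.64 at Day 4, and for Mixl1 at -0.80 to 0.99, -0.62 to 1.45 and -1.35 to 1.6, all 95% intervals on the log2 scale. Those of Tbx6 were -1.51 to 1.01, -0.96 to 0.98 and -1.30 to 0.87. Gsc had more reads in shCTSL than in shSC at Day 0 (5 and 4 against 0 and 4) with an interval of -0.44 to 3.41, and Evx1 was 0.49 ± 0.43 higher at Day 0 and 0.63 ± 0.49 at Day 4 (edgeR adjusted p = 0.913 and 0.548). Lhx1 at Day 0 had 5 reads in shSC and 0 in shCTSL, which is too few for a fold. At Day 4 the interval was -0.97 to 1.44 for Gsc and -0.45 to 1.72 for Evx1. The Day 4 intervals of T, Mixl1, Gsc and Evx1, and that of Cdx2 above, held a 2-fold higher level (1 on the log2 scale). Those of T, Mixl1 and Tbx6, and that of Lhx1 above, held a 2-fold lower level. For each of these genes a difference of that size in the named direction was not excluded.

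**Figure D3:**
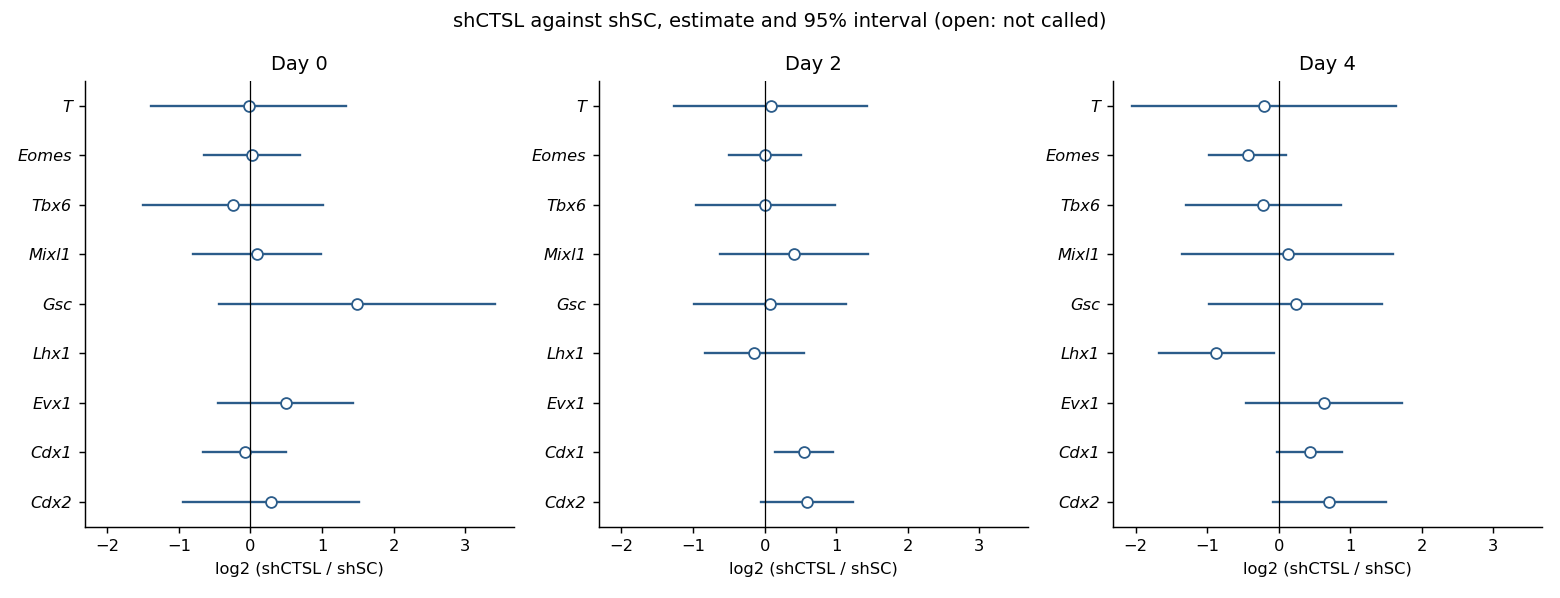
Log2 difference of shCTSL against shSC (horizontal axes) for the 9 tested genes at Day 0, Day 2 and Day 4, with 95% intervals from the edgeR fit, where open points are not called. The intervals cross 0 except those of Cdx1 at Day 2 (0.14 to 0.95) and Lhx1 at Day 4 (-1.68 to -0.06), and Lhx1 at Day 0 and Evx1 at Day 2 are left out because 1 group holds 0 or 1 read.

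The other genes of the streak were called in both directions as well, as was common among all genes tested. At Day 2 against Day 0, 29.3% of all genes tested were called higher and 25.3% lower in shSC. In shCTSL these shares were 30.9% and 24.6%. They apply to the Day 2 counts of every list below. Of 12 streak signals 10 were tested, and in shSC at Day 2 against Day 0 3 were called higher (Wnt3a, Wnt5a and Wnt8a) and 5 lower (Fgf4, Fgf17, Tdgf1, Bmp4 and Wnt3), with a median log2 fold change of -0.51. Wnt8a, a ligand of the posterior streak, had the highest change of the list, with 0.238 ± 0.0135 CPM at Day 0 and 2.84 ± 0.125 at Day 2 (3.53 ± 0.49, edgeR adjusted p = 0.000124). The Day 0 level of Wnt8a rests on a few reads. Fgf17 had the lowest change, with 80.9 ± 6.30 and 1.01 ± 0.311 CPM (-6.29 ± 0.20, adjusted p = 1.03e-08). Nodal was not called at Day 2 (-0.06 ± 0.13, adjusted p = 0.728), and by Day 4 8 of the 10 were lower than at Day 0 (28.7% of all genes in shSC). In shCTSL the Day 2 counts were also 3 higher and 5 lower, but with Lefty2 in place of Wnt5a. Lefty2, an antagonist of Nodal, was the only gene of this list called between the lines. At Day 0 shSC had 159 ± 7.76 CPM and shCTSL 67.0 ± 0.919 (-1.24 ± 0.11, adjusted p = 0.00396), and the line difference in its Day 4 against Day 0 change was also called (1.52 ± 0.16, adjusted p = 0.0447).

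Among 16 neighbouring streak and caudal factors, of which 14 were tested, 5 were called higher in shSC at Day 2 (Foxa2, Snai1, Nkx1-2, Sp8 and Hhex). Sall4 and Otx2 were called lower. Of all genes 29.3% were called higher and 25.3% lower, and the median of both the list and all genes was 0.02. Foxa2, a forkhead factor of the anterior streak and of endoderm, rose from 0.238 ± 0.0135 to 34 ± 2.91 CPM (7.11 ± 0.20, edgeR adjusted p = 6.15e-09). Its Day 0 level rests on a few reads, so the fold is less certain than this SE. In shCTSL Foxa2 went from 3 to 1493 summed reads, 287-fold by depth (95% counting interval 97.9 to 1392). Otx2, an anterior homeobox factor, fell in shSC from 10.7 ± 0.110 to 0.715 ± 0.0212 CPM (-3.88 ± 0.23, adjusted p = 4.04e-07). The same 7 genes were called in shCTSL in the same directions, and none was called between the lines on any day. Of 8 presomitic mesoderm genes 6 were tested, and in both lines Rspo3, Hes7 and Dll1 were called higher and Lfng lower (in shSC -1.14 ± 0.19, adjusted p = 0.000474) by Day 2. Rspo3, a secreted enhancer of Wnt signals, went from 2 to 188 summed reads, 51.9-fold by depth (95% counting interval 14.2 to 432). Msgn1, the target of Tbx6 that defines presomitic mesoderm, had at most 2 summed reads in any group, and Ripply2 at most 3.

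All 7 retinoic acid target genes were called higher at Day 2 in both lines, with a median of 7.73 in shSC and 8.45 in shCTSL. In shSC Crabp2, a retinoic acid binding protein, had the lowest change (5.12 ± 0.28, edgeR adjusted p = 2.68e-07), and Hoxb1 went from 1 to 7275 summed reads, 4018-fold by depth (counting interval 721 to 158722). All 6 genes of undifferentiated mESCs fell in both lines, in shSC from -2.11 ± 0.09 (Nanog, adjusted p = 6.93e-08) to -3.81 ± 0.12 (Klf4, adjusted p = 1.11e-08).

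**Figure D4:**
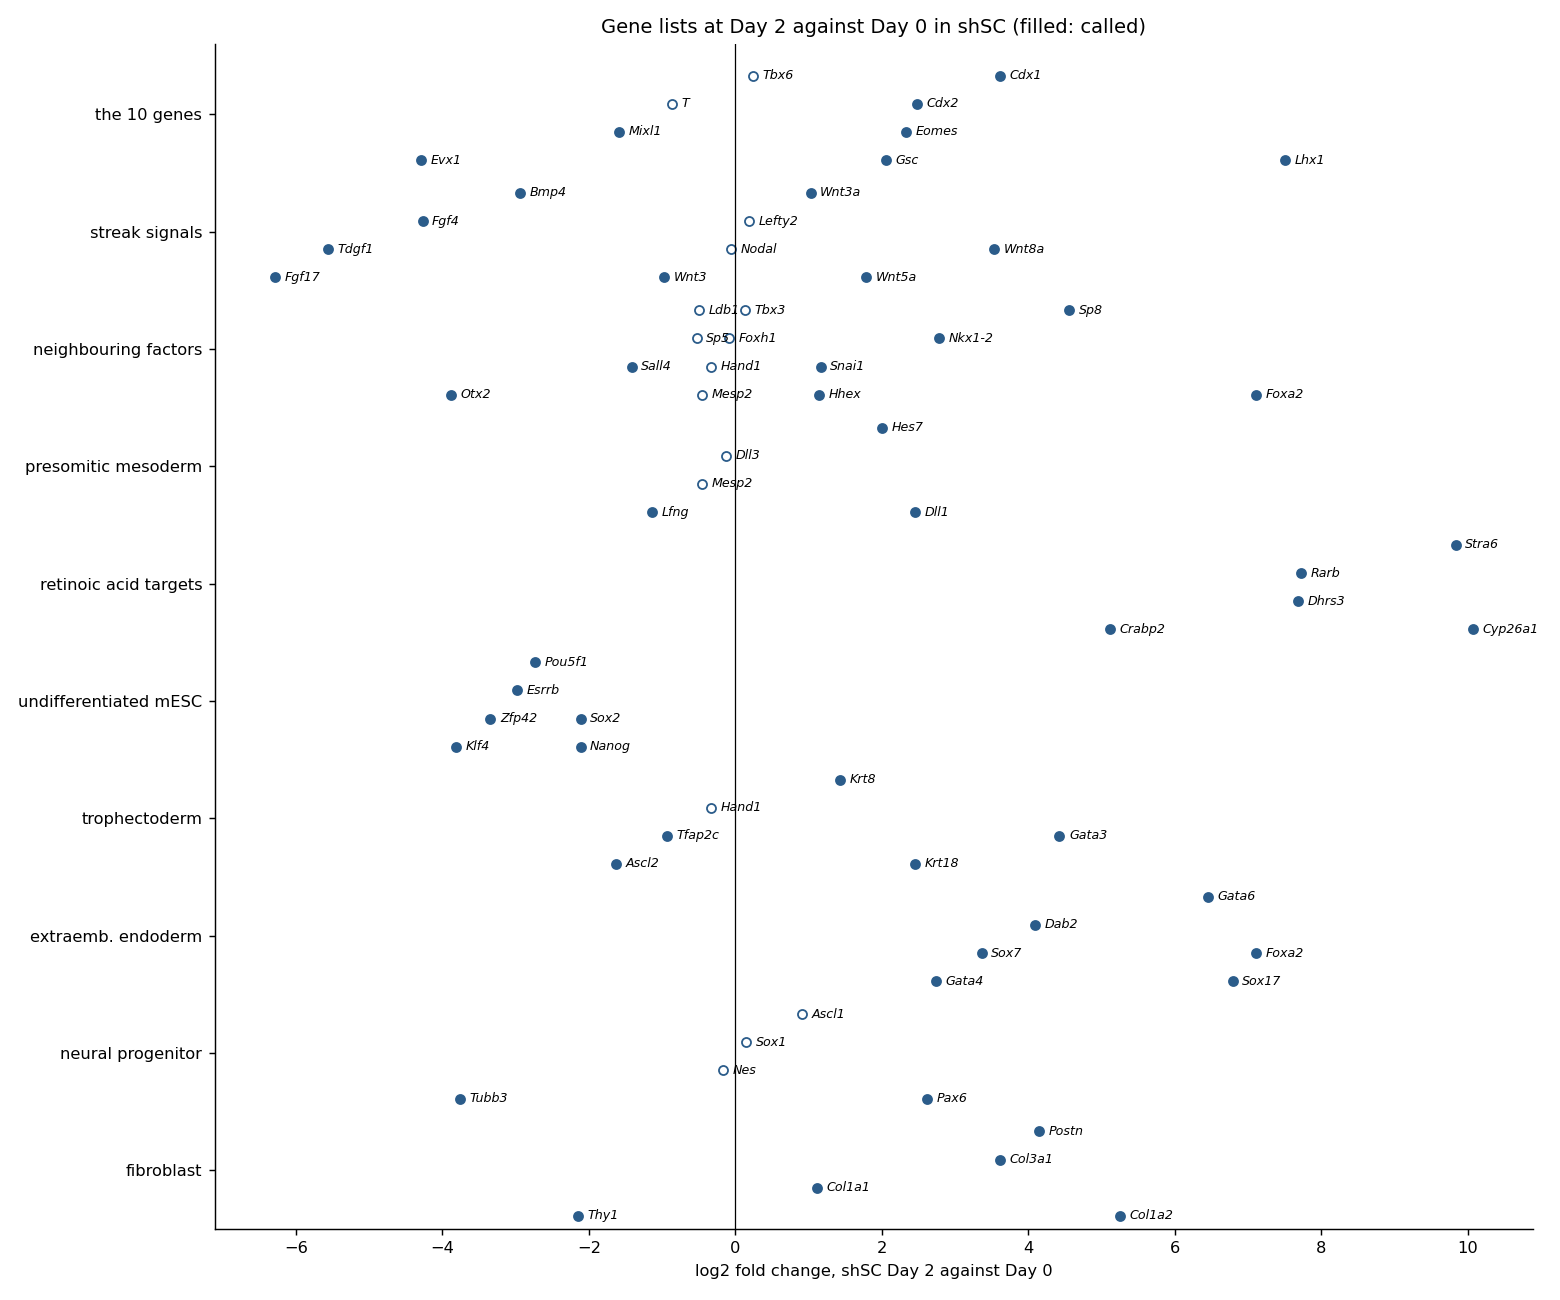
Log2 fold change of shSC Day 2 against Day 0 (horizontal axis) for tested genes of the 10 lists (rows), with filled points for called changes, leaving out genes with 3 or fewer summed reads at either day. The 9 tested members spread from Evx1 at -4.29 to Lhx1 at 7.50, the plotted retinoic acid targets all lie above 5 and the mESC genes all below -2.

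Markers of other cell types that share these factors moved in the same EBs. All 8 extraembryonic endoderm genes, Foxa2 again among them, were called higher at Day 2 in both lines. Their summed level went from 12.8 and 12.9 CPM in the shSC Day 0 libraries to 275 and 278 at Day 2 and 527 and 531 at Day 4. In shCTSL it went from 15.0 and 16.5 to 240 and 278 and then 556 and 607. Gata4 had the lowest change in shSC (2.74 ± 0.15, edgeR adjusted p = 2.47e-07), and the yolk sac gene Ttr went from 0 to 374 summed reads, at least 68.9-fold higher against a floor of 3 counts. Of the 8 trophectoderm genes 7 were tested, and 4 were called higher (Gata3, Plac1, Krt8 and Krt18) and 2 lower (Tfap2c and Ascl2) at Day 2 in both lines. Their summed level was 107 CPM in both shSC Day 0 libraries, 235 to 267 at Day 2 and 528 to 598 at Day 4, and in shCTSL 97.8 to 106, 295 to 435 and 740 to 860. Elf5, a defining trophectoderm gene, had 0 to 3 summed reads in each Day 0 and Day 2 group, when Cdx2 and Eomes peaked, and 24 in shSC and 13 in shCTSL at Day 4. Plac1 went from 0 to 78 summed reads in shSC at Day 2, at least 14.4-fold higher, and Ascl2 fell (-1.63 ± 0.26, adjusted p = 0.000321). Krt8 was called higher in shCTSL in the mean over the days (0.72 ± 0.12, adjusted p = 0.0480). The part of extraembryonic endoderm or trophectoderm cells in the levels of Eomes, Lhx1 and Cdx2 was not tested.

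Of 6 neural progenitor genes, Pax6 was called higher at Day 2 in shSC (2.61 ± 0.19, edgeR adjusted p = 1.65e-06) and Tubb3 lower (-3.76 ± 0.19, adjusted p = 1.71e-07). Their summed level was 231 to 245 CPM at Day 0, 134 to 135 at Day 2 and 150 to 171 at Day 4. Of 5 fibroblast genes 4 were called higher, Col1a2 with the largest change (5.25 ± 0.29, adjusted p = 2.77e-07), and Thy1 lower (-2.15 ± 0.25, adjusted p = 3.93e-05), and their summed level was 10.3 to 11.2, 29.3 to 29.6 and 389 to 395 CPM. In shCTSL the neural sums were 214 to 221, 147 to 177 and 130 to 142 CPM and the fibroblast sums 7.05 to 8.20, 22.3 to 25.1 and 388 to 410 CPM, and no gene of either list was called between the lines.

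Likeness of pattern was described by Pearson's r of log2(CPM + 0.5) over the 12 libraries, which share lines, days and depth, so that r has no test. Among the members, Eomes and Lhx1 were the most alike (r = 0.97), followed by Cdx1 and Cdx2 (0.93), Cdx1 and Lhx1 (0.92) and Eomes and Cdx1 (0.91), while Evx1 ran opposite to Cdx1 (-0.93), Lhx1 (-0.91), Cdx2 (-0.90) and Eomes (-0.89). T was closest to Mixl1 (0.70). Over all tested genes, the 3 most like Lhx1 were Prtg (0.99), Rhbdl3 (0.99) and Megf6 (0.99), those most like Eomes were Cnnm3 (0.98), Vash1 (0.98) and Prtg (0.98), and those most like Cdx1 were Wbscr27 (0.997), H2-K1 (0.996) and Fam64a (0.992). Cdx2 was most like H2-D1 (0.98), Qpct (0.98) and Kazald1 (0.97), Mixl1 like Ccdc40 (0.98), Prr5l (0.98) and Platr22 (0.98), and Evx1 like Zfand2a (0.96), Thtpa (0.95) and Hccs (0.94). For the low genes r was smaller, with Pts (0.91), Nat8f1 (0.90) and Eif4ebp3 (0.90) for Gsc, Dgkg (0.87), Rhbdl2 (0.86) and Fer1l4 (0.83) for Tbx6 and Prr19 (0.86), Il23a (0.86) and Dbil5 (0.84) for T. An r above 0.95 was reached by 299 genes for Lhx1, 189 for Cdx1, 152 for Mixl1, 113 for Eomes, 48 for Cdx2 and 1 for Evx1, and by none for T, Tbx6 or Gsc. These counts depend on the setting: with a pseudocount of 5 they were 155 for Lhx1, 204 for Cdx1, 368 for Mixl1, 93 for Eomes and 126 for Cdx2, and without the shCTSL Day 2 libraries 360, 176, 1140, 127 and 22, so no order is read from them. Prtg, a neighbour of both Lhx1 and Eomes, was at 16.9, 254 and 97.5 CPM at the 3 days in shSC and at 15.9, 207 and 73.8 in shCTSL, and H2-D1, the gene most like Cdx2, at 2.44, 16.7 and 5.50 in shSC and 3.46, 24.8 and 8.62 in shCTSL (means of 2 libraries).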

How the data were processed

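RNA-seq of 12 libraries was analysed, 2 for each of 2 lines at 3 days. Poly(A) RNA was sequenced from libraries of a directional kit, and the authors mapped the reads with STAR 2.3.0e (mm9). Mitochondrial, unplaced and low-quality alignments (MAPQ below 10) were dropped using SAMtools 0.1.19. RefSeq genes were then quantified by featureCounts 1.6.2. The deposited values are raw counts, unnormalized, for 24495 genes. The strand setting of the counting is not given in the sources used. In the labels the lines are named scr and KD, taken as shSC and shCTSL.

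The tests were run by edgeR 4.0.16 in R 4.3.3 (filterByExpr with a minimum count of 10, TMM, quasi-likelihood fit of 6 group means, 6 residual degrees of freedom), with Benjamini-Hochberg adjustment over all 15532 genes tested. Differences between lines in the changes between days are interaction contrasts. Normalized CPM are counts over the TMM-scaled library total. DESeq2 1.42.0, limma-voom 3.58.1, other filters, RLE normalization, a replicate block and each library left out were alternatives. Exonic lengths came from GENCODE M1 on mm9. Counting intervals are exact at the 95% level and cover counting error only. SDs rest on 2 libraries per group. SEs come from the fit of all 12 libraries, as the size of the log2 fold change over the root of its F statistic. The 95% intervals of fold changes and line differences were built from these SEs. For genes with few reads such SEs can be smaller than the counting error.

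The members and the lists of other genes were chosen with earlier results of these data known. All members are named, and for each the 3 tested genes most like it over the 12 libraries, predicted loci left out. From each other list the highest and lowest change at shSC Day 2 and every gene called between the lines are named. Genes named beyond this rule (Msgn1, Ripply2, Elf5, Nodal, Evx1os and those that only appear as called in a list) were chosen after their values were seen. Of the retinoic acid targets, 1 gene counted in its list is not reported here on its own.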

Additional observations from a re-analysis of the deposited data

How the results depend on the processing

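Over 70 fold changes of the members, 1192 of 1297 values under alternative settings kept their direction and their side of the threshold. These were the changes between days of the 9 tested members and the line differences of Cdx1, Cdx2, Eomes and Lhx1. Line differences of the other members, and those in the changes between days, were not part of this tally. Of the other values in the tally 71 lost a call, 17 gained one and 17 changed sign, and the causes were not tested. Under DESeq2 the members called lower became 1 in shSC at Day 4 against Day 0 and 1 in shCTSL at Day 2 and at Day 4 against Day 0, and under RLE normalization 1 in shCTSL at Day 4 against Day 0. Requiring 1 CPM in 2 libraries, which removes T, Mixl1 and Gsc from the test, left 1 called lower at Day 2 and at Day 4 against Day 0 in both lines. Without a filter, or with only the libraries compared, 1 was lower in shCTSL at Day 2. With limma-voom 0 were lower in shCTSL at Day 2 against Day 0, and at Day 4 against Day 2 0 were higher and 2 lower. A log2 cutoff of 1.5 left 2 higher and 1 lower in shSC at Day 4 against Day 0, 2 lower at Day 4 against Day 2 in both lines, and 1 lower in shCTSL at Day 2. The replicate numbers did not pair the samples (15 pairs of groups, correlations of -0.47 to 0.26, 2 of them over 0.1), and a replicate block left 1 member lower in shCTSL at Day 4 against Day 0 and moved no other count of called members by more than 1.5 times. With single libraries left out, members called higher and lower ranged from 4 to 5 and 1 to 2 (shSC Day 2 against Day 0), 3 to 5 and 1 to 3 (Day 4 against Day 0) and 0 to 1 and 2 to 4 (Day 4 against Day 2), and in shCTSL those lower from 1 to 2, 1 to 3 and 3 to 4. Between the lines 0 to 2 were called at Day 2, 0 to 1 at Day 4, 0 to 1 in the mean over the days and 0 to 1 in the line difference of the Day 2 change. Signs changed when single libraries were left out for Tbx6 in shSC at Day 2 (-0.15 to 0.77, log2) and Day 4 (-0.37 to 0.56, and -0.04 without shSC Day 4 replicate 1) and in shCTSL at Day 4 (-0.59 to 1.16, and -0.42 without Day 0 replicate 2), for T in shCTSL at Day 2 (-1.31 to 0.59) and for Gsc in shCTSL at Day 4 against Day 2 (-0.67 to 0.32). Between the lines, where only Cdx1, Cdx2, Eomes and Lhx1 were followed, signs changed for Cdx2 at Day 0 (-0.34 to 1.76) and Eomes at Day 0 (-0.23 to 0.30, and -0.075 without shCTSL Day 0 replicate 2). They also changed for Lhx1 at Day 2 (-0.42 to 0.088) and Eomes at Day 2 (-0.24 to 0.21). The last was also -0.019 with RLE, -0.020 with DESeq2 and -0.014 without a filter. Of 60 levels per kilobase, 17 moved by more than 1 SD when library totals were not scaled by TMM. Depth limits T, Mixl1, Gsc, Mesp1 and Evx1 most.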
